A study of Mus musculus with 12 samples.

Results

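The expression of 9 genes was followed across 12 RNA-seq libraries of HT22 cells, an immortalized mouse hippocampal line. These are 9 of the 24343 genes listed in each library, and all 9 passed the filter on low values described with the tests. Ero1l, Ndrg1, Higd1a, Adm, Vegfa, Ankrd37, Car9, Ddit4 and Selenbp1 were taken as transcripts linked to hypoxia outside the glycolytic enzymes, and they were selected on their measured changes in these libraries, the fold changes in siNCOA4, in DFO and in both. Those 3 contrasts against siControl are therefore given as descriptions without a test. All cells were HT22 cells transfected with siRNA by liposomes. The 4 groups of 3 biological replicates were siControl (control siRNA, normal iron), siNCOA4 (Ncoa4 siRNA, normal iron), siControl+DFO and siNCOA4+DFO (the same siRNAs, with 24 h of 100 µM DFO, a chelator of iron). All data come from 1 cell line, and p-values measure the spread between its samples, since nothing in the sources used here says whether they came from separate cultures.

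Hypoxia-inducible factor is a transcription factor whose alpha subunit is marked for degradation by prolyl hydroxylases, enzymes that need oxygen and iron. Iron chelation, like low oxygen, can therefore let the factor accumulate, and it then binds short cores, ACGTG or GCGTG, near its target genes. The targets outside glycolysis serve many ends: Vegfa and Adm encode secreted factors that act on vessels, Car9 encodes a carbonic anhydrase that handles acid at the cell surface, and Ero1l encodes the oxidase that supplies disulfide bonds in the endoplasmic reticulum (ER). Ndrg1 is also known as a transcript that rises when iron is removed. NCOA4 is the receptor that carries ferritin to lysosomes, where its iron is released.

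To show where such cores lie in the genes described here, the sequence around the last core before the start site is given for each gene found in the RefSeq promoter table (build GRCm38.p6), and all 3 for Ero1l, the gene with the largest change with DFO. Capitals mark the core that the line is given for, on either strand, with overlapping cores joined into 1 site. Each line reads 5′ to 3′ on the strand of the gene. The Vegfa line also holds, in lower case, the other core of that window, 218 bases before the start site. Each window covered 250 bases before and 50 after the start site of that table, from which the distances are counted.
Ero1l, 128 bases before the start site, chr14:45318684-45318712, minus strand: ccggaggcgggtGCGTGagcggggcgcgc
Ero1l, 88 bases before the start site, chr14:45318644-45318672, minus strand: cgcccgaggctcGCGTGgacagaggcgcg
Ero1l, 63 bases before the start site, chr14:45318619-45318647, minus strand: cgcgcgccgctgCACGTccgcaggggagg
Ddit4, 115 bases before the start site, chr10:59951869-59951897, minus strand: gacctggaggggGCGTGgcctcgccggga
Higd1a, 70 bases before the start site, chr9:121857848-121857876, minus strand: ggtctagcctGCGTGCGTGgcgttcgcgg
Vegfa, 211 bases before the start site, chr17:46025358-46025386, minus strand: ggagtgcgtgccCACGTcagagagcaaca
Car9, 18 bases before the start site, chr4:43506996-43507024, plus strand: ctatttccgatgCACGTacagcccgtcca
Ankrd37, 6 bases before the start site, chr8:45999840-45999868, minus strand: cagtgtttgggtACGTGaggccgcagcgg
Adm, 54 bases before the start site, chr7:110627591-110627619, plus strand: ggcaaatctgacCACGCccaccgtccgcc
Selenbp1, 181 bases before the start site, chr3:94932892-94932920, plus strand: gcacaagtgtGCGTGCGTGcacacacacc

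All 8 genes with an entry held at least 1 core in the window, against 46.7% of the 27025 genes in the table, and 7 of them held 2 or more, against 19.2%. In the 150 bases nearest to the start, 5 of the 8 held a core, against 32.2% of all genes. Vegfa had a window at each of 2 start sites, and the second held no core. That second window, chr17:46032328-46032627, holds the start of the gene in the GENCODE annotation, at 46032369. The first, chr17:46025114-46025413, lies inside the gene, and the place of Vegfa in these counts rests on it. The windows of Ankrd37 and Higd1a also lie inside their genes and do not reach the annotated starts, at 46005707 and 121858362. The Ero1l and Car9 cores lie past the annotated starts, at 45318771 and 43506966, and so within the annotated genes. Ndrg1 was not in the table. Ero1l and Ankrd37 had the most sites, 3 each, while Car9 had 1. Higd1a held a further core that began 44 bases after its start site. In Selenbp1, a gene whose level did not rise with DFO, the core sat among short GT and CA repeats. A match of letters describes the window and is not evidence of binding.

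**Figure D1:**
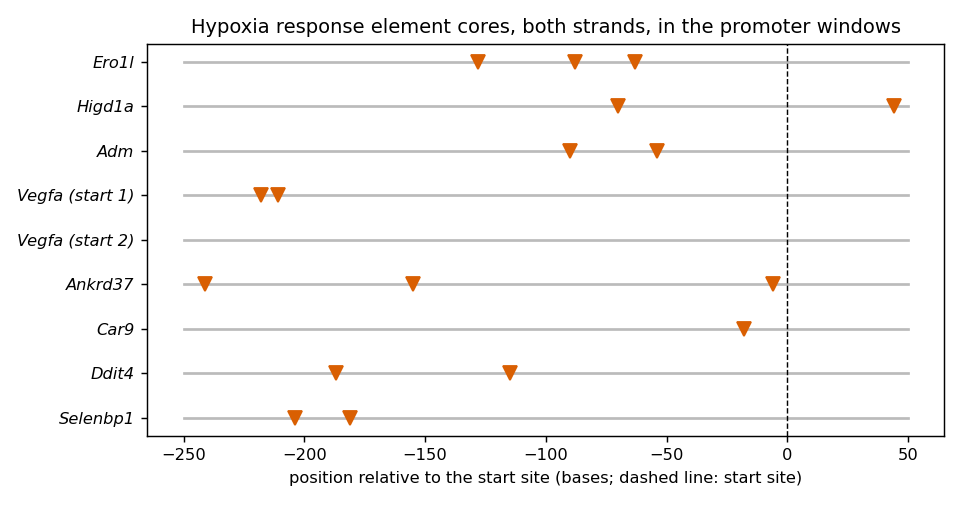
Positions of the hypoxia response element cores (triangles) along the promoter windows of 8 of the 9 genes, in bases relative to the start site of the promoter table. Ero1l held cores 128, 88 and 63 bases before its start, and Ankrd37 also held 3. The second start of Vegfa, at the start of the annotated gene, held none.

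In the GENCODE annotation of GRCm38, Ero1l lies on chromosome 14 from 45283087 to 45318771 and Ndrg1 on chromosome 15 from 66929318 to 66969640, both on the minus strand. Genes on the opposite strand overlap Ndrg1, Higd1a, Adm, Ankrd37 and Car9, and the strand setting of the authors' counting is not given in the sources used here. Of the 75-base windows of the longest coding transcript, 34.7% of those of Selenbp1 also occur in Selenbp2 and 6.07% of those of Higd1a occur in the pseudogenes Gm14925 and Gm9790, so reads could be split between them. The other 7 genes shared no such window.

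The authors deposited FPKM, fragments normalized to transcript length and library size, which can be compared between genes. The step between the lowest FPKM values is worth 1 fragment, and from these steps the deepest library held 1.52 times as many fragments as the shallowest. Replicates correlated across genes, which are not independent, at r from 0.926 to 0.955. Ncoa4, the siRNA target, read 6.46, 6.19 and 6.02 FPKM in siControl and 0.77, 0.952 and 0.891 in siNCOA4. The siControl+DFO libraries had 8.7, 8.31 and 7.52 and the siNCOA4+DFO libraries 0.85, 1.29 and 1.57, so every library with Ncoa4 siRNA lay below every one without. Of its windows, 41.4% also occur in Gm6768. Of 10 neuron markers, Tubb3 and Syn1 were present (mean 7.77 and 5.52 FPKM in siControl) while Map2, Rbfox3, Snap25, Gad1, Prox1 and Neurod1 were at 0 in siControl, so the labelled neuronal identity rested on few markers. The summed neuron markers ranged from 13.0 to 14.1 FPKM in siControl and from 17.5 to 18.5 in siControl+DFO, and from 9.59 to 12.6 and 11 to 13.9 in the corresponding siNCOA4 groups. The 5 microglia markers summed to between 10.1 and 11.8 FPKM in siControl and between 1.09 and 1.73 in siControl+DFO, and in siControl nearly all of this was Tmem119, with Aif1, Cx3cr1, Csf1r and Ptprc at means of 0.346 or less in every group. The 5 markers of astrocytes, of oligodendrocytes and of endothelial cells summed to at most 3.31, 1.47 and 1.91 FPKM in any library. The part of these markers in the results was not tested.

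Changes are on the log2(FPKM + 0.1) scale, which understates those of low genes, and come from a limma fit over all 12 libraries and the 11924 genes with at least 0.5 FPKM in 3 or more libraries. Adjusted p-values are from limma with Benjamini-Hochberg adjustment over all of these genes. A gene was called when its fold change was above 2 and its adjusted p below 0.05. Against siControl, 7 of the 9 genes were called higher with DFO and 0 lower, where 11.1% of all genes were called higher and 7.76% lower. In siNCOA4, 0 of the 9 were called in either direction (1.78% of all genes). Of the 9, 5 had an unadjusted p below 0.05, as did 3129 of all 11924 genes. With both treatments 7 were called higher and 1 lower, where 9.24% and 5.93% of all genes were called. Because the genes were chosen with these contrasts in view, nothing is read from these counts. The 3 contrasts also share the siControl libraries. In bulk RNA, more transcript per cell and more cells carrying the transcript cannot be told apart.

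Ero1l, whose product ERO1 reoxidizes protein disulfide isomerase, had the largest change with DFO. It read 14.2, 12.7 and 10.1 FPKM in siControl and 23.4, 22.7 and 21.5 in siNCOA4. With DFO it read 173, 193 and 201 FPKM in siControl cells and 216, 198 and 171 in siNCOA4 cells. The siNCOA4 libraries all lay above the siControl libraries without DFO, whereas the 2 DFO groups overlapped. Against siControl the log2 change was 0.88 ± 0.12 (SE) in siNCOA4, 3.94 ± 0.12 in siControl+DFO and 3.98 ± 0.12 in siNCOA4+DFO. These are 1.84-fold, 15.3-fold and 15.7-fold. Ero1l was the only one of the 9 genes whose change with both treatments was not below its change with DFO alone.

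Ndrg1, a stress-responsive protein linked to growth arrest and vesicle traffic, was the most abundant of the 9 in siControl+DFO. Its FPKM was 42.5, 37.9 and 34.1 in siControl and 26, 17.2 and 20.8 in siNCOA4. It stood at 343, 350 and 326 in siControl+DFO and at 176, 156 and 125 in siNCOA4+DFO. No siNCOA4 library reached the level of a siControl library with the same DFO treatment. Its log2 change was -0.85 ± 0.15 in siNCOA4, 3.16 ± 0.15 in siControl+DFO and 1.99 ± 0.15 in siNCOA4+DFO. Ndrg1 thus moved the other way from Ero1l in siNCOA4 while both were raised by DFO. Without siNCOA4 replicate 1, the library of that group with the most Ndrg1, the siNCOA4 change was just past the fold threshold, at -1.005.

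Ddit4 encodes REDD1, an inhibitor of the growth kinase complex mTORC1. In siControl its FPKM was 20.4, 25.7 and 23.8, and in siNCOA4 it was 30.8, 28.4 and 30.5. DFO brought it to 152, 163 and 147 in siControl cells and to 126, 115 and 88.1 in siNCOA4 cells. The order of the siRNA groups was thus reversed by DFO, with siNCOA4 above siControl without it and below with it, and no overlap in either case. The log2 changes against siControl were 0.37 ± 0.12 in siNCOA4, 2.73 ± 0.12 in siControl+DFO and 2.22 ± 0.12 in siNCOA4+DFO.

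The secreted factor Vegfa, which drives vessel growth, read 25.6, 24.6 and 21.3 FPKM in siControl and 18.9, 17.4 and 20.2 in siNCOA4. In DFO it read 96.2, 104 and 109 in siControl cells and 89.7, 86.7 and 77.2 in siNCOA4 cells. Every siNCOA4 library was below every siControl library at the same iron state, by a small margin. Relative to siControl the log2 values were -0.34 ± 0.09, 2.11 ± 0.09 and 1.82 ± 0.09 for siNCOA4, siControl+DFO and siNCOA4+DFO.

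Adm encodes adrenomedullin, a vasodilating peptide, and was low throughout. Its FPKM was 3.17, 1.89 and 3.4 in siControl, 2.02, 0.836 and 1.88 in siNCOA4, 4.25, 4.25 and 3.15 in siControl+DFO and 2.86, 1.99 and 2.29 in siNCOA4+DFO. These values stood for 4 to 20 fragments per library, or 36, 24, 51 and 29 over the 3 libraries of each group in the same order. The siControl and siControl+DFO libraries overlapped, and the log2 change with DFO was 0.48 ± 0.32, against -0.84 ± 0.32 in siNCOA4 and -0.21 ± 0.32 with both. Adm thus did not stand apart with DFO in these libraries, although it is counted among hypoxia targets.

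Higd1a is a small protein of the mitochondrial inner membrane that associates with respiratory complexes. It read 22.3, 23.8 and 19.1 FPKM in siControl and 22, 23.2 and 19.9 in siNCOA4, and the groups overlapped, with a log2 change of 0.00 ± 0.11. With DFO it read 115, 95.5 and 102 in siControl cells and 93.1, 78.4 and 76.4 in siNCOA4 cells, changes of 2.26 ± 0.11 and 1.92 ± 0.11 from siControl. Here the siRNA groups separated in DFO alone.

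Car9, the acid-handling carbonic anhydrase, varied between replicates without DFO, at 6.13, 3.01 and 2.62 FPKM in siControl and 5.51, 2.14 and 1.41 in siNCOA4. With DFO it was tighter, at 13.4, 15.5 and 16.5 in siControl cells and 12.5, 13.4 and 13.2 in siNCOA4 cells. The DFO libraries all lay above the others, with log2 changes of 2.02 ± 0.40 in siControl+DFO and 1.81 ± 0.40 in siNCOA4+DFO, while siNCOA4 alone gave -0.49 ± 0.40.

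Ankrd37, an ankyrin-repeat protein of little-known function, read 5.6, 8.55 and 4.07 FPKM in siControl and 7.91, 6.11 and 4.62 in siNCOA4. It reached 22.8, 19.8 and 20.5 in siControl+DFO and 14.4, 17.7 and 11.3 in siNCOA4+DFO. The siRNA groups overlapped without DFO (log2 change 0.06 ± 0.26) and not with it. From siControl it changed by 1.84 ± 0.26 in siControl+DFO and 1.28 ± 0.26 in siNCOA4+DFO.

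Selenbp1, the methanethiol oxidase, was the least abundant of the 9. Its FPKM was 1.7, 0.338 and 1.09 in siControl, 1.3, 0.504 and 0.453 in siNCOA4, 0.2, 0.341 and 0.361 in siControl+DFO and 0.191, 0.354 and 0.23 in siNCOA4+DFO. Only 1 to 8 fragments lay behind each of these, 16, 14, 5 and 4 per group. Its log2 change was -1.31 ± 0.56 in siControl+DFO, where the other 8 genes had values above 0, and -1.47 ± 0.56 in siNCOA4+DFO, where Adm was also below 0, with overlapping libraries in both cases. It was the 1 gene called lower with both treatments, a call that was lost when any one of 8 of the 12 libraries was left out and that was kept without siControl replicate 2, siNCOA4 replicate 1, siNCOA4 replicate 3 or siControl+DFO replicate 1. With DFO alone it was called lower when siControl replicate 2 was left out.

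**Figure D2:**
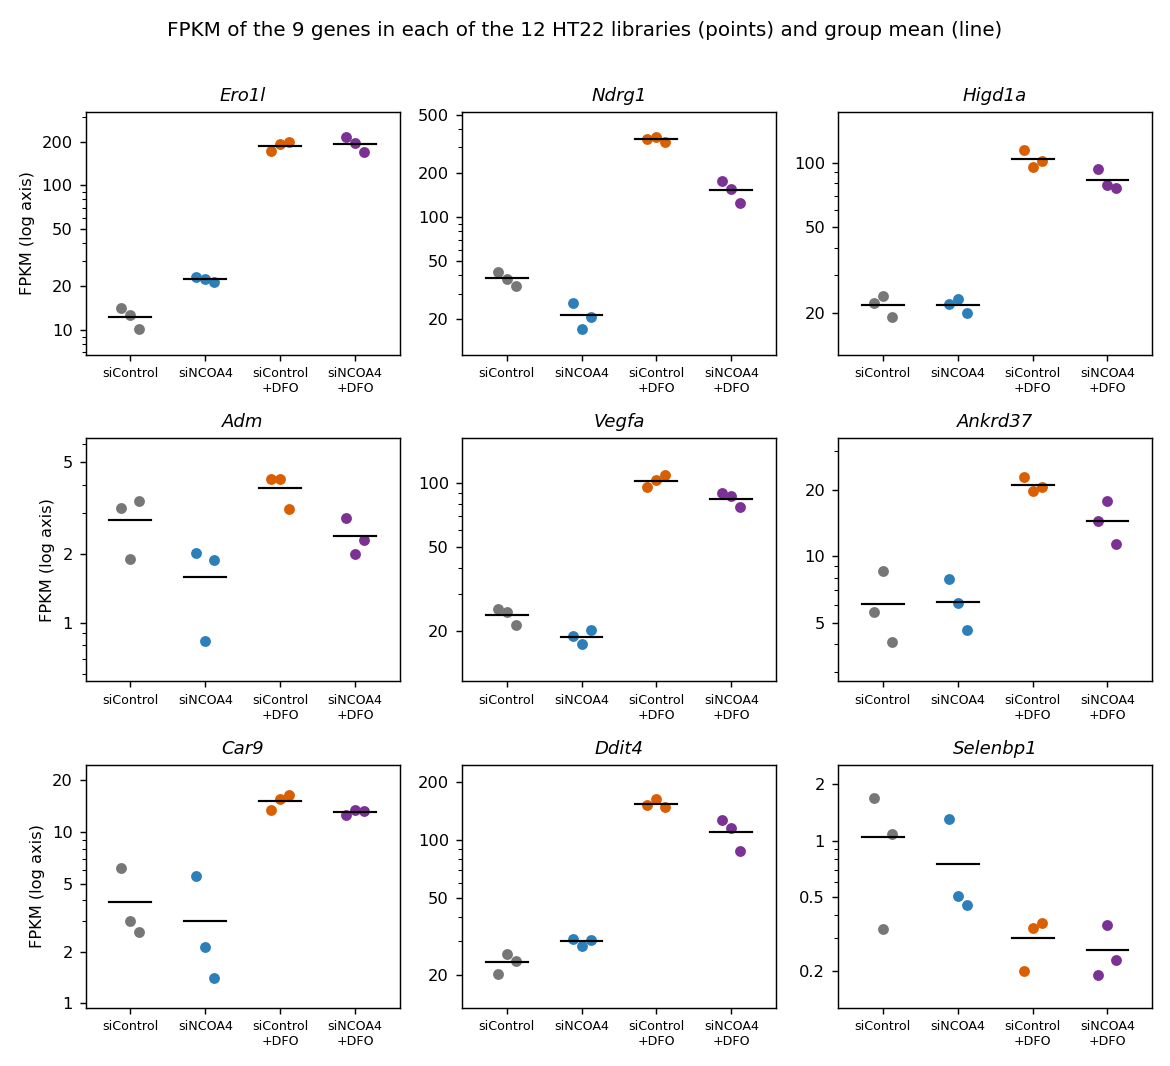
FPKM (log axis) of the 9 genes in the 12 libraries, by group, with points for libraries and lines for group means. Ero1l sits at 171 to 216 in both DFO groups, whereas Ndrg1 falls from 326 to 350 in siControl+DFO to 125 to 176 in siNCOA4+DFO, and Selenbp1 is lower in the DFO groups.

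The order of the DFO changes ran from Ero1l (15.3-fold) over Ndrg1 (8.91-fold), Ddit4 (6.61-fold), Higd1a (4.78-fold), Vegfa (4.32-fold), Car9 (4.05-fold) and Ankrd37 (3.58-fold) to Adm (1.39-fold), with Selenbp1 below 0. On the log2 scale Ero1l was 0.78 above Ndrg1, Ndrg1 0.43 above Ddit4 and Ddit4 0.47 above Higd1a. Higd1a and Vegfa differed by 0.15, near their standard errors, and Vegfa, Car9 and Ankrd37 followed at steps of 0.09 and 0.18, less than the standard error of Car9.

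**Figure D3:**
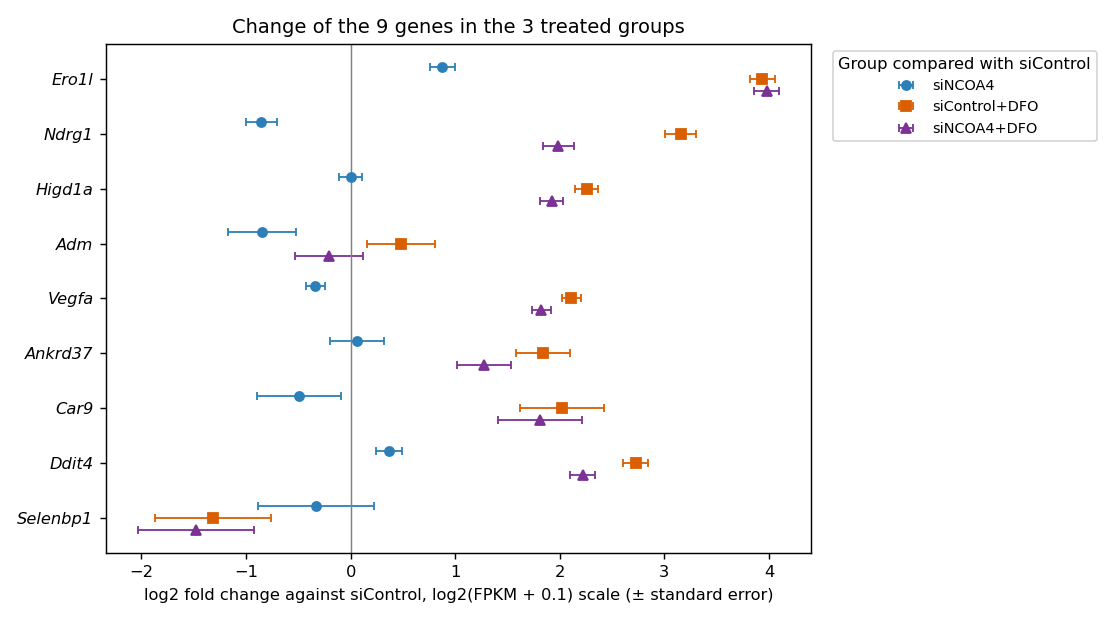
Log2 fold change against siControl (± standard error) of each gene in siNCOA4 (circles), siControl+DFO (squares) and siNCOA4+DFO (triangles). The triangle lies left of the square for each gene except Ero1l, whose values are 3.94 and 3.98.

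The contrasts that the choice of genes did not name were then tested. Each is a difference between the changes against siControl on which the genes were selected, from the same 12 libraries. Their p-values thus describe values that the choice had already used, and they are not independent evidence. The first asks what loss of Ncoa4 did in DFO-treated cells, siNCOA4+DFO against siControl+DFO. Ndrg1 was called lower, 2.25-fold (log2 change -1.17, 95% CI -1.50 to -0.84, adjusted p = 0.000593), where 1.01% of all genes were called lower. Ddit4 was lower by less than the fold threshold (-0.51, -0.77 to -0.24, adjusted p = 0.0153). By adjusted p alone these were 2 of 9 genes lower, against 10.2% of all genes. With quantile scaling Ndrg1 changed by -0.96 and was no longer past the fold threshold. The adjusted p of Ddit4 rose to 0.0588 without siControl+DFO replicate 2 and to 0.0535 when the 2 groups were fitted alone.

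For Vegfa the change was -0.29 (95% CI -0.49 to -0.08, adjusted p = 0.0543) and for Higd1a -0.33 (-0.57 to -0.10, adjusted p = 0.0559), in both cases with all 3 siNCOA4+DFO libraries below all 3 siControl+DFO libraries. Ankrd37 (-0.56, adjusted p = 0.155), Adm (-0.69, adjusted p = 0.168) and Car9 (-0.21, adjusted p = 0.767) also had non-overlapping groups but did not pass the test. How many of all genes had non-overlapping groups was not counted, so nothing is read from the lack of overlap. Selenbp1 gave -0.16 with an adjusted p of 0.876. Ero1l was at 0.04 (95% CI -0.23 to 0.30, adjusted p = 0.865), so that a change beyond these bounds was not seen, and the interval lay above that of Ndrg1. Thus 8 of the 9 genes had values below 0 in this contrast and 1, Ero1l, above, where 50.7% of all genes were below 0. The sign for Ero1l was not stable, being -0.02 without siControl+DFO replicate 1 and -0.04 without siNCOA4+DFO replicate 1.

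The second contrast was DFO in Ncoa4-depleted cells, siNCOA4+DFO against siNCOA4. The same 7 genes that were called higher in siControl+DFO were called higher here, where 7.59% of all genes were. Ero1l rose 8.56-fold (log2 change 3.10 ± 0.12, adjusted p = 1.83e-08), Ndrg1 7.15-fold, Car9 4.93-fold, Vegfa 4.47-fold, Higd1a 3.79-fold, Ddit4 3.62-fold and Ankrd37 2.32-fold. The adjusted p of Ankrd37, the smallest of these rises, was 0.00236. Adm (0.64, adjusted p = 0.136) and Selenbp1 (-1.14, adjusted p = 0.119) did not pass. With quantile scaling Selenbp1 passed as lower (-1.83, adjusted p = 0.0191).

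The third asks whether the effect of siNCOA4 differed between the iron states, the interaction, called at an adjusted p below 0.05. It was negative for Ddit4 (-0.87, 95% CI -1.25 to -0.50, adjusted p = 0.0271) and for Ero1l (-0.84, -1.22 to -0.46, adjusted p = 0.0322), 2 of 9 genes, where 1.43% of all genes had a negative interaction. For Ddit4 the siNCOA4 effect went from 0.37 without DFO to -0.51 with it, and for Ero1l from 0.88 to 0.04. The Ero1l levels thus met with DFO, whereas those of Ddit4 crossed. Both calls were near the threshold. The Ero1l call was lost when any one of 9 of the 12 libraries was left out (adjusted p from 0.0552 to 0.0806) and was kept without siControl replicate 1, siControl replicate 3 or siNCOA4+DFO replicate 1. That of Ddit4 was lost without any one of 7 libraries (adjusted p from 0.0518 to 0.0689) and kept without siControl replicate 2, siControl+DFO replicate 3 or any siNCOA4+DFO library.

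For the other 7 genes the interaction did not pass. Ndrg1 was at -0.32 (95% CI -0.78 to 0.14, adjusted p = 0.469), with siNCOA4 effects of -0.85 and -1.17, so the difference between its effects without and with DFO may lie anywhere in that interval. Vegfa was at 0.05 (-0.24 to 0.33, adjusted p = 0.881) and Higd1a at -0.33 (-0.67 to 0.00, adjusted p = 0.278). Ankrd37 was at -0.63 (adjusted p = 0.403). The intervals of Adm, Car9 and Selenbp1 were each at least as wide as from -0.84 to 1.16.

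**Figure D4:**
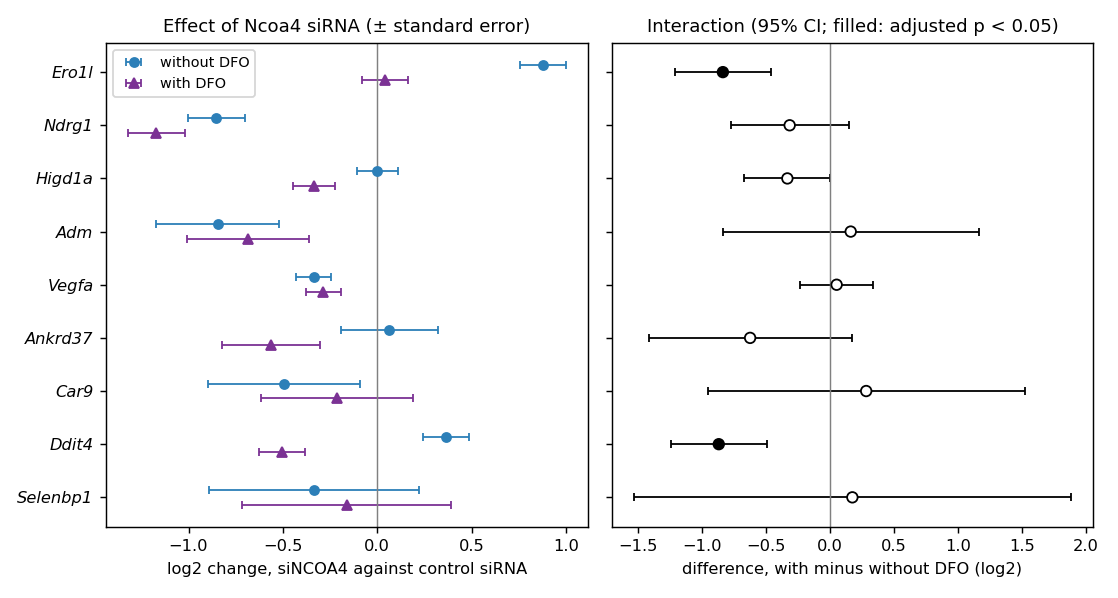
Left, log2 change (± standard error) of each gene with Ncoa4 siRNA against control siRNA, without DFO (circles) and with DFO (triangles). Right, the difference between the 2 effects with its 95% CI, filled where the adjusted p was below 0.05, which was the case for Ero1l (-0.84) and Ddit4 (-0.87).

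Within each library Ero1l was set against the other 8 genes, and its ratio to most of them was higher when Ncoa4 was depleted. The ratio of Ero1l to Ndrg1 FPKM was 0.295 to 0.337 in siControl and 0.902 to 1.32 in siNCOA4. It was 0.505 to 0.617 in siControl+DFO and 1.23 to 1.37 in siNCOA4+DFO. Against Vegfa it went from between 0.472 and 0.555 to between 1.07 and 1.30 without DFO, and from between 1.80 and 1.85 to between 2.21 and 2.40 with it. Of the 8 ratios, 7 were higher in every siNCOA4 than in every siControl library, all but that to Selenbp1, and 6 were so among the DFO libraries, all but those to Selenbp1 and Car9. Ero1l is in each of these ratios, which were chosen after the values were seen. How many ratios of Ero1l to all other genes separate in this way was not counted, so nothing is read from these counts. The effect of siNCOA4 on Ero1l itself was seen without DFO and not with it. Under DFO its log2 change was 0.04 and those of the other 8 genes were below 0, so the higher ratios there came with lower companions.

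By Pearson correlation of log2 values over the 12 libraries, among 10836 genes, the patterns most like that of Ero1l were those of Trp53inp1 (r = 0.997), Apaf1 (r = 0.996) and Plcxd2 (r = 0.996). All are shaped by the difference between the DFO and other libraries, and no p is given. The mean FPKM of Trp53inp1, a p53-inducible autophagy protein, was 3.29 in siControl, 8.07 in siNCOA4, 100 in siControl+DFO and 94.1 in siNCOA4+DFO. Apaf1, the core of the apoptosome, went through 9, 12.6, 44.9 and 44.6 in the same order. The genes most like the others were Egr1 for Ndrg1 (r = 0.997), Ccl5 for Ddit4 (r = 0.997), Rev1 for Higd1a (r = 0.995), Mreg for Vegfa (r = 0.995), Map3k8 for Ankrd37 (r = 0.970), Snapc4 for Car9 (r = 0.963) and Smox for Adm (r = 0.908). Egr1, an immediate early transcription factor, had means of 7.91, 4.49, 118 and 45.3 FPKM. Selenbp1 was below the mean of 1 FPKM required here.

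The genes that receive the secreted signals were sparse. Of 8 receptors and partners for Vegfa and Adm, 3 passed the filter. Flt1 and Kdr, the signalling receptors for Vegfa, had means of at most 0.046 and 0.0171 FPKM in any group. Its co-receptor Nrp2 fell with DFO from 41.4 ± 3.10 (SD, n = 3) to 10.7 ± 2.20 FPKM (log2 change -1.97, adjusted p = 1.16e-06 by limma) and was also called lower in siNCOA4, at 14.1 ± 1.60. The other co-receptor, Nrp1, read 23.4, 32.8, 18 and 24.8 FPKM on average in siControl, siNCOA4, siControl+DFO and siNCOA4+DFO and was not called. Calcrl, the adrenomedullin receptor, rose with DFO from 2.08 ± 0.173 to 5.64 ± 1.53 FPKM (1.36 on the log2 scale). Its partners Ramp1 and Ramp2 were at or near 0 in every group, and Ramp3 had means of at most 0.531.

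Of 16 close relatives of the 9 genes, 7 were tested. Figf, which encodes VEGF-D, was called lower with DFO, from 87.2 ± 3.17 to 34.9 ± 0.820 FPKM, opposite to Vegfa. Adm2, a paralogue of Adm, was listed at 0 in all 6 libraries without DFO and had means of 0.948 and 0.223 FPKM in siControl+DFO and siNCOA4+DFO. Vegfb, Ndrg3, Ndrg4 and Higd2a had log2 changes with DFO of -0.45, -0.73, 0.29 and -0.28 and were not called, and Pgf was at 1.81 with 0 to 6 fragments per library. Vegfc, Ndrg2, Higd1b and Higd1c were listed at 0 throughout, and Ddit4l, Selenbp2, Car2, Car12 and Car14 had means of at most 0.147 FPKM in any group.

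Among 30 other targets of hypoxia-inducible factor taken from general knowledge, 23 were tested, of which 15 were called higher and 2 lower with DFO, against 11.1% and 7.76% of all genes. The median log2 change was 1.31, against -0.01 for all genes. Among the largest changes were those of Hmox1 (3.06), the haem-degrading enzyme, Plod2 (2.79), a collagen lysyl hydroxylase, and Tfrc (2.22), the transferrin receptor. Lox and Tgfb3 were the 2 called lower, at -1.38 and -1.25. In siNCOA4+DFO against siControl+DFO, 21 of the 23 had values below 0 and 8 were lower at an adjusted p below 0.05, against 50.7% and 10.2% of all genes. Of these, 2 were called, where 1.01% of all genes were called lower, among them Edn1 (-1.36), with 6 to 19 fragments per library in siNCOA4+DFO. Without siNCOA4+DFO replicate 3, 0 of this list were called, and without siControl+DFO replicate 2, 1 was. Plod2 was the target most like Ero1l in sign, at 0.65 in siNCOA4 and 0.23 in siNCOA4+DFO against siControl+DFO (adjusted p = 0.168), and was singled out after its values were seen. Wsb1 was the 1 gene of the 23 with a called interaction (-0.71, adjusted p = 0.00397).

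Of 20 glycolysis targets, 18 were tested and 6 were called higher with DFO and 0 lower, against 11.1% and 7.76% of all genes, with a median of 0.77. Hk2 (2.08), Slc2a1 (2.07), Pfkfb3 (1.43) and Pfkp (1.38) changed most. With Ncoa4 siRNA under DFO 15 of the 18 had values below 0, 10 at an adjusted p under 0.05, against 50.7% and 10.2% of all genes. Pfkfb3 was called lower (-1.40), a call lost without any siControl+DFO replicate, without siNCOA4+DFO replicate 2 and with a pseudocount of 1. Gapdh, singled out after its values were seen, was 1 of the 3 above 0 (1.28, adjusted p = 0.405). Its siNCOA4+DFO libraries ran from 0.641 to 33.2 FPKM (12.2 ± 18.2, SD), so its place above 0 is uncertain. It was listed at a mean of 1.44 FPKM in siControl, low for an enzyme that every cell uses. Values above 0 in this contrast were thus found for Ero1l, for 2 of the other hypoxia targets and for 3 of the glycolysis targets.

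Of 11 genes for hypoxia-inducible factor itself and its regulators, 9 were tested and 0 were called with DFO, while 6 had an unadjusted p below 0.05 and 5 an adjusted one, where 58.8% and 53.4% of all genes did. With quantile scaling 1 was called. Hif1a, the oxygen-regulated subunit, averaged 47.9, 38.6, 71.6 and 53.9 FPKM in siControl, siNCOA4, siControl+DFO and siNCOA4+DFO. Epas1, the other main alpha subunit, was listed at 0 in every library. Hif1a, Cited2, Egln1 and Egln2 were singled out after their values were seen. Cited2, which competes for the coactivator of the factor, averaged 84.3, 56.7, 60.3 and 35.5 FPKM in the same order. Egln2, a prolyl hydroxylase of this list, averaged 23.9, 21.4, 14.5 and 14.8 FPKM. Egln1, a prolyl hydroxylase counted with the other hypoxia targets and not in this list, averaged 28.2, 20.1, 50.8 and 44.1.

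Ero1l belongs with the enzymes of oxidative folding in the ER. Of 15 genes for such enzymes and for ER chaperones and their partners, all tested, 2 were called with DFO. Both were higher, a share near the 11.1% of all genes. Hspa5, the chaperone BiP, changed by 2.15 and Ero1lb, the second ERO1 oxidase, by 1.15, from 1.06 ± 0.144 to 2.46 ± 0.336 FPKM. In siNCOA4 Ero1lb went the other way from Ero1l, to 0.561 ± 0.116 FPKM (-0.81), and was not called. Pdia4, a disulfide isomerase, was the 1 gene of the list called in siNCOA4 (1.78% of all genes), falling from 111 ± 7.11 to 49.5 ± 4.94 FPKM. Under DFO, 0 were called between the siRNA groups and 5 had an unadjusted p below 0.05, as did 32.2% of all genes. Pdia4 was among these, at 120 ± 14.2 FPKM in siControl+DFO and 61.6 ± 5.45 in siNCOA4+DFO. Its change (-0.96, adjusted p = 0.000222) fell just short of the fold threshold. The other isomerases P4hb, Pdia3, Pdia5, Pdia6 and Txndc5 had DFO changes between -0.48 and 0.55. The median of the list with DFO was 0.11.

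Ddit4 is also known as a target of ATF4, the transcription factor of the integrated stress response. Of 15 genes listed as targets of ATF4 and CHOP, all tested, 12 were called higher with DFO and 0 lower. The shares of all genes were 11.1% and 7.76%, and the median of the list was 1.99. The list includes Atf4 and Ddit3, the genes of ATF4 and CHOP themselves, and both are among the 12. Ppp1r15a, which reverses the translational arrest, changed most (5.44), followed by Atf3 (4.6), Slc7a11, the cystine transporter (3.59), and Sesn2 (3.28). Atf3 was listed at 0 in all libraries without DFO and averaged 2.46 FPKM in siControl+DFO and 1.03 in siNCOA4+DFO. In siNCOA4 without DFO Slc7a11 was called higher (1.29), and under DFO Ppp1r15a was called lower (-1.08), which was lost with quantile scaling and without siNCOA4+DFO replicate 3. Interactions were negative for Nupr1 (-1.25, adjusted p = 0.00971), a stress-response cofactor, and Cth (-0.63, adjusted p = 0.0354), an enzyme of cysteine synthesis. Both had values above 0 in siNCOA4 (0.93 and 0.59). Under DFO neither passed, with Nupr1 at -0.32 (adjusted p = 0.133) and Cth at -0.04 (adjusted p = 0.821). Ddit4 was at -0.51 there (adjusted p = 0.0153).

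**Figure D5:**
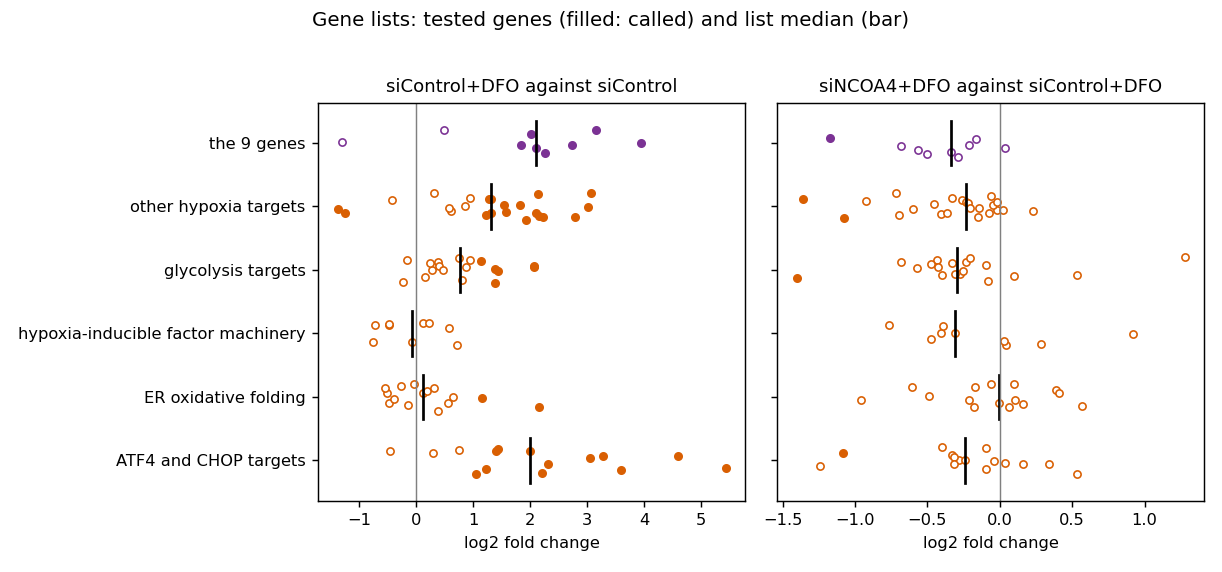
Log2 fold change of each tested gene in 6 lists with DFO (left) and with Ncoa4 siRNA under DFO (right). Filled points were called and bars are medians, which with DFO were 2.11 for the 9 genes, 1.31 for the other hypoxia targets and 1.99 for the targets of ATF4 and CHOP.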

How the data were processed

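RNA-seq was measured in 12 libraries, grouped by their titles. The authors deposited FPKM per gene, 1 table per library with 24347 entries, of which 4 shared a name and were left out. The submitters' processing notes name Trimmomatic 0.33, FastQC, HISAT2 2.1.0, featureCounts, edgeR and mm10. The tool that made the FPKM is not given in the sources used here. FPKM are not counts, so no count test was run.

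Changes were fitted with limma 3.58.1 in R 4.3.3 on log2(FPKM + 0.1), as group means over all 12 libraries with a mean-variance trend (8 residual degrees of freedom), for genes at 0.5 FPKM or more in at least 3 libraries. The fit was tested on simulated data. With 3 libraries against 3 an exact two-sided permutation test cannot go below p = 0.1, so it decided no call. Depth came from the steps of low FPKM (163 to 240 genes a library), and fragments were whole within 0.15. Intervals cover the spread between libraries only.

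The 9 genes, the gene lists and the tests were chosen with earlier results of these data known. Named beside the 9 genes and Ncoa4 were, in each list, up to 4 called genes with the largest DFO change and those called for siNCOA4 with or without DFO, all receptors and relatives, and the genes of most similar pattern with a mean of at least 1 FPKM. A gene that the rule names is not reported here. Others are stated as chosen after their values were seen, and Atf4 and Ddit3 are named as the genes of the factors themselves. Promoters were RefSeq sequences matched by symbol. Alternatives were other pseudocounts, filters and scalings, the replicate number as a block, the compared groups alone, no trend, and each library left out. Python 3.11.15 and matplotlib 3.10.9 were used for summaries and figures.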

Additional observations from a re-analysis of the deposited data

Results flagged for a closer look

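Among the 9 genes and the gene lists, 5 genes had an effect of siNCOA4 that differed between cells with and without DFO, by a limma interaction test with an adjusted p below 0.05. The log2 difference, with DFO minus without, was -0.84 for Ero1l and -0.87 for Ddit4, which lost the call without any one of 9 and 7 of the 12 libraries. It was -0.71 for Wsb1, -1.25 for Nupr1 and -0.63 for Cth. In each of the 5 the value without DFO was above 0. For Ero1l and Ddit4 the test reused the changes on which they were selected. The cause of these differences was not tested.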

How the results depend on the processing

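Of 1119 recomputed log2 changes of the 9 genes, 1080 kept their direction and their side of the threshold or, where untested, moved by less than the spread between replicates. A pseudocount of 1 lowered the genes called from 212 to 112 for siNCOA4 and from 249 to 129 for siNCOA4 under DFO. The 250 genes with an interaction became 165 with quantile scaling and 164 without a trend, and 76 to 292 with 1 library left out. Of the 9 genes, 2 had a called interaction, which became 1 without a filter on low values, 1 with quantile scaling, 0 without a trend and 0 to 2 with 1 library left out. For siNCOA4, 3 passed in place of 0 by adjusted p alone, and 0 to 1 with 1 library left out. Under DFO, in place of 1, 0 passed with quantile scaling and 2 by adjusted p alone. Over all 11924 genes, 1399 passed by adjusted p alone for siNCOA4 and 1963 under DFO. In the lists under DFO, a pseudocount of 1 left 0 glycolysis targets called, quantile scaling left 0 targets of ATF4 and CHOP, and 1 receptor was called without a filter on low values. Close relatives called under DFO rose from 0 to 1 without that filter, with quantile scaling or without a trend. With DFO, 1 in place of 2 ER folding genes was called with a pseudocount of 1, 1 in place of 2 relatives with a pseudocount of 1 or an FPKM of at least 2, and 1 gene of the factor's machinery with quantile scaling. With 1 library left out the relatives called with DFO numbered 1 to 3, and under DFO the other hypoxia targets 0 to 3, and the glycolysis targets, ER folding genes, targets of ATF4 and CHOP and receptors 0 to 1 each. With 1 library left out, signs turned for values that did not pass or were not tested. In siNCOA4 without DFO, Selenbp1 ranged from -0.915 to 0.104, Ankrd37 from -0.186 to 0.341 and Higd1a from -0.09 to 0.068. Likewise, Ero1l under DFO ranged from -0.039 to 0.13, and the interactions of Adm from -0.22 to 0.41, Vegfa from -0.005 to 0.13, Car9 from -0.13 to 0.82 and Selenbp1 from -0.27 to 0.75, the last also -0.21 with quantile scaling. Core sites in the 150 bases nearest to the start were found in 5 genes in place of 8. The cause of these shifts was not tested. Deviations of libraries with the same replicate number correlated at r from -0.13 to 0.12 (2 of 18 pairs above 0.1). For different numbers r ran from -0.17 to 0.16 (4 of 36 pairs above 0.1). Over all genes tested the same numbers thus did not stand apart. A correlation over all genes cannot exclude an effect shared by libraries of 1 number on some genes. With the replicate number as a block 171 genes and the same 2 of the 9 had a called interaction, and 7 in place of 8 were called with both treatments. Depth limits Adm and Selenbp1 most.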
